A study of Drosophila melanogaster with 2 samples.

Results

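The genes described here are 10 genes of *Drosophila* dosage compensation and sex determination, chosen by name from 10844 genes with a probe set of a single gene symbol. *msl-1*, *msl-2*, *msl-3*, *mle* and *mof* encode the protein subunits of the male-specific lethal (MSL) complex. *Sxl*, *tra*, *dsx*, *her* and *ix* act in sex determination. All 10 were found on the arrays, with 11 probe sets, as *Sxl* had a pair and each of the others had 1. RNA was taken from homozygous *mid* mutant embryos and from *yw* embryos, a stock mutant for *yellow* and *white*, and each genotype had 1 Affymetrix array. The *mid* gene encodes a T-box transcription factor, and its mutants were recognised by the absence of a GFP-marked *CyO* balancer chromosome. Embryos of both genotypes were held for 16 h after egg laying at 25 °C. The *mid* stock listed in the Methods is *mid1* over *CyO*, but the allele on the array is not named. The sex of the embryos and the number pooled are also not given in the sources used here, so each array may hold any mix of males and females. The *yw* embryos are the control by the labels. The paper's Results call the control wild-type, whereas its Methods speak of *mid* heterozygotes. Differences between the stocks cannot be told apart from effects of *mid*.

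Male flies have a single X chromosome and raise its transcription to match the paired X of females. The MSL complex does this by binding the male X and acetylating histone H4, together with the non-coding RNAs *roX1* and *roX2*. In females the RNA-binding protein SXL blocks production of MSL-2 and directs splicing of *tra* RNA. TRA in turn directs the splicing of *dsx* RNA into its female form. The proteins DSX and IX then control sex-specific genes together in females. Much of this cascade works through splicing and translation, so the amount of RNA does not read its activity, and the probe sets are not resolved here by isoform.

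The deposited values were MAS5 signal intensities, and their median was 43.3 on the *mid* array and 150 on the *yw* array, so the scales differed. The *mid* array was therefore brought to the median of the *yw* array, and all signals are given after this step. A floor of 97.6, the pooled 40th percentile, replaced dimmer signals before a log2 fold change (*mid* over *yw*) was taken. A gene counts as measured when its signal passed the floor in either genotype, and as called higher or lower when it differed by more than 2-fold. A single array of each genotype leaves every difference without a replicate check and allows no p-value. As a scale for disagreement between probe sets, those of the same gene varied around their mean log2 fold change with an SD of 0.53 (287 genes). It comes from this 1 array pair and holds no variation between repeated arrays or embryo samples. Of 7687 measured genes, 435 (5.66%) were called higher and 348 (4.53%) called lower in *mid*. That balance depends on scaling, with 55.6% of calls higher after median centring, 43.3% after an equal central mean, 22.1% with spiked controls and 0.295% with values as deposited. The signal of the *mid* gene was 56.8 in *mid* and 49.3 in *yw* embryos, under the floor in both, which leaves the genotype unchecked. As a sign of RNA quality, 3′ over 5′ signal was 53.5 in *mid* and 28.8 in *yw* for actin, 63.3 and 50.8 for eIF-4a, 7.43 and 4.52 for 18S rRNA, and 17.3 and 21.6 for GAPDH, and the part of RNA quality in the values below was not tested.

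Most of the 10 genes differed little or were too dim to measure. *ix* alone was called, and it was lower in the *mid* embryos. The MSL subunits were dim, and 4 of the 5 lay below the floor in *mid*. Of the 10 genes, 8 were measured, of which 5 were above the floor on both arrays and 3 were above it in *yw* only. None was called higher, against 5.66% of all measured genes, and 1 was called lower, against 4.53%. The median log2 fold change was -0.07 over the 8 measured genes and 0.25 over the 5 above the floor on both arrays, where all such genes had 0.06 and 0.08. Because 3 genes entered the first median only through their *yw* signal, the direction of that median says nothing about the group.

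**Figure D1:**
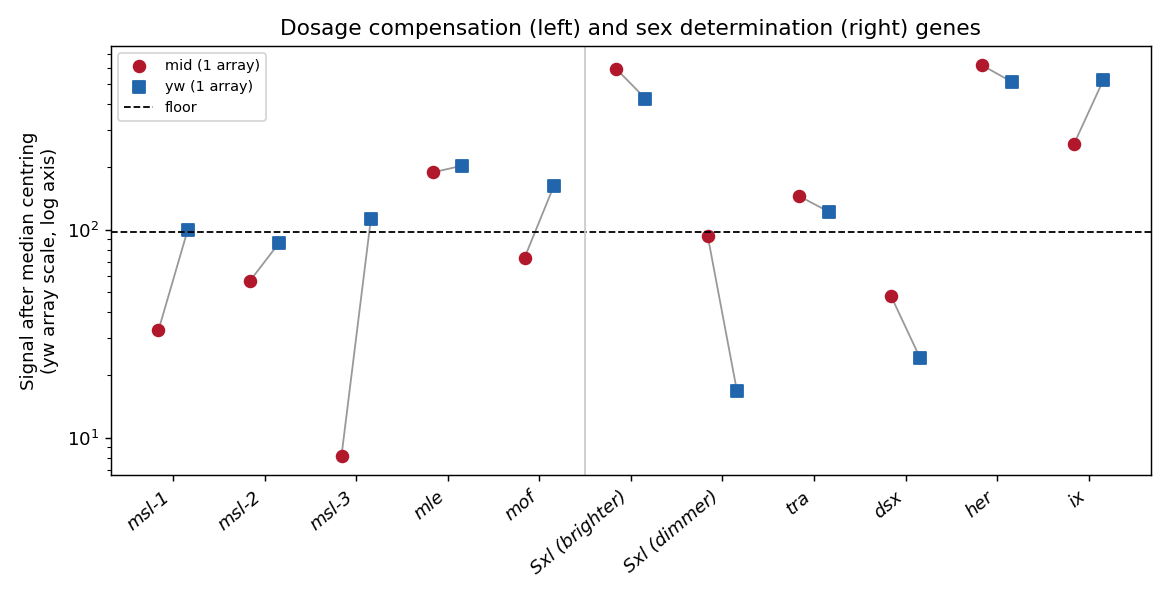
Signal of each probe set of the 10 genes after median centring (log axis, scale of the *yw* array), with *mid* embryos as circles and *yw* embryos as squares, 1 array each, and the floor of 97.6 dashed. All 5 MSL probe sets on the left read lower in *mid* and only *mle* is above the floor on both arrays, whereas *Sxl* (brighter), *tra*, *her* and *ix* on the right are above it on both.

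Among the MSL subunits, *mle* encodes the RNA helicase that remodels the *roX* RNAs, and was the one subunit above the floor on both arrays. It read 188 in *mid* and 203 in *yw*, a log2 fold change of -0.11. *mof* encodes the histone H4 acetyltransferase, an X-linked gene itself. It read 73.4 in *mid*, below the floor, and 162.6 in *yw*, and so was at least 1.67-fold lower, short of the 2-fold limit. The size of this difference rests on the floor, since *mof* was 2.21-fold lower with no floor.

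*msl-3* encodes a chromodomain protein that helps the complex spread along the X. Its signal was 8.21 in *mid* and 112 in *yw*, at percentiles 4.4 and 43.0 of their arrays, which gives a lower bound of only 1.15-fold. *msl-1* encodes the scaffold of the complex and read 32.8 in *mid* and 99.7 in *yw*, where it was just above the floor, and so was at least 1.02-fold lower. *msl-2* encodes the subunit that is made in males only, and it read 56.7 in *mid* and 86.5 in *yw*, below the floor on both arrays, so no fold is given. These bounds, from 1.02-fold to 1.67-fold, are all short of a call.

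Before any floor, the signals of all 5 MSL probe sets were lower in *mid* than in *yw* under every scaling run, although *msl-2* was below the floor on both arrays after median centring. The 3 genes above the floor in *yw* only had to read lower, so their direction is no support. For comparison, 48.3% of the 10844 named genes read lower after median centring, 67.4% with spiked controls and 96.2% with values as deposited. The subunits below the floor in *mid* have dim signals without a detection call, so the order of such signals carries little weight. In whole embryos, fewer cells that express a gene and less RNA per cell cannot be told apart. *roX1* and *roX2* were not analysed here, so the RNA part of the complex is not described.

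Among the sex determination genes, *Sxl* is the switch gene at the head of the cascade. Its brighter probe set read 592 in *mid* and 426 in *yw*, a log2 fold change of 0.48, within 1 SD of probe sets of the same gene. Its dimmer probe set read 93.1 in *mid* and 16.7 in *yw*, both below the floor, so it gives no fold and does not check the brighter one. *tra*, the splicing regulator downstream of *Sxl*, read 145 in *mid* and 122 in *yw* (log2 fold change 0.25), close to the floor on both arrays. *her* encodes a zinc finger protein needed for the activation of *Sxl* and for female differentiation. It read 615 in *mid* and 513 in *yw*, a log2 fold change of 0.26. These 3 differences were all within the spread between probe sets.

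*dsx* encodes the transcription factor at the end of the cascade, which is spliced differently in males and females. It read 48.1 in *mid* and 24.1 in *yw*, below the floor on both arrays, so neither a level nor a direction is given. *ix* encodes a partner of the female DSX protein that is also a subunit of Mediator, the complex that links transcription factors to RNA polymerase. It read 258 in *mid* and 522 in *yw*, well above the floor on both arrays, a log2 fold change of -1.02 or 2.02-fold lower. This lay just past the 2-fold limit, and 4.4% of measured genes had a lower log2 fold change. *ix* was called lower at this limit under all 9 other scalings, floors and summaries of probe sets, but not at a 3-fold limit. The floors and the median over probe sets could not change its value, as its single probe set was above every floor. The other scalings lowered the median of all measured genes, and *ix* read -2.81 with values as deposited and -1.34 with spiked controls. With the shift of all measured genes removed, these were -1.23 and -1.05, and the value with no floor was -0.98. *ix* thus lies at the limit.

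Of the 4 sex determination genes above the floor on both arrays, *Sxl*, *tra* and *her* read higher in *mid* after median centring and *ix* read lower. With spiked controls *tra* (-0.08) and *her* (-0.06) read lower, and with values as deposited *Sxl* did as well. These scalings moved all measured genes, by -0.30 with spiked controls and by -1.58 with values as deposited. Both differ from median centring by a constant factor on the *mid* array. Removing the shift brings the values close to the median-centred ones with spiked controls, but less close with values as deposited. In neither setting is it a check on their direction. The values of *Sxl*, *tra* and *her* were then 0.45, 0.22 and 0.23 under spiked controls and 0.26, 0.31 and 0.05 with values as deposited. In the latter setting *tra* was below the floor in *mid* and its value rests on the floor.

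**Figure D2:**
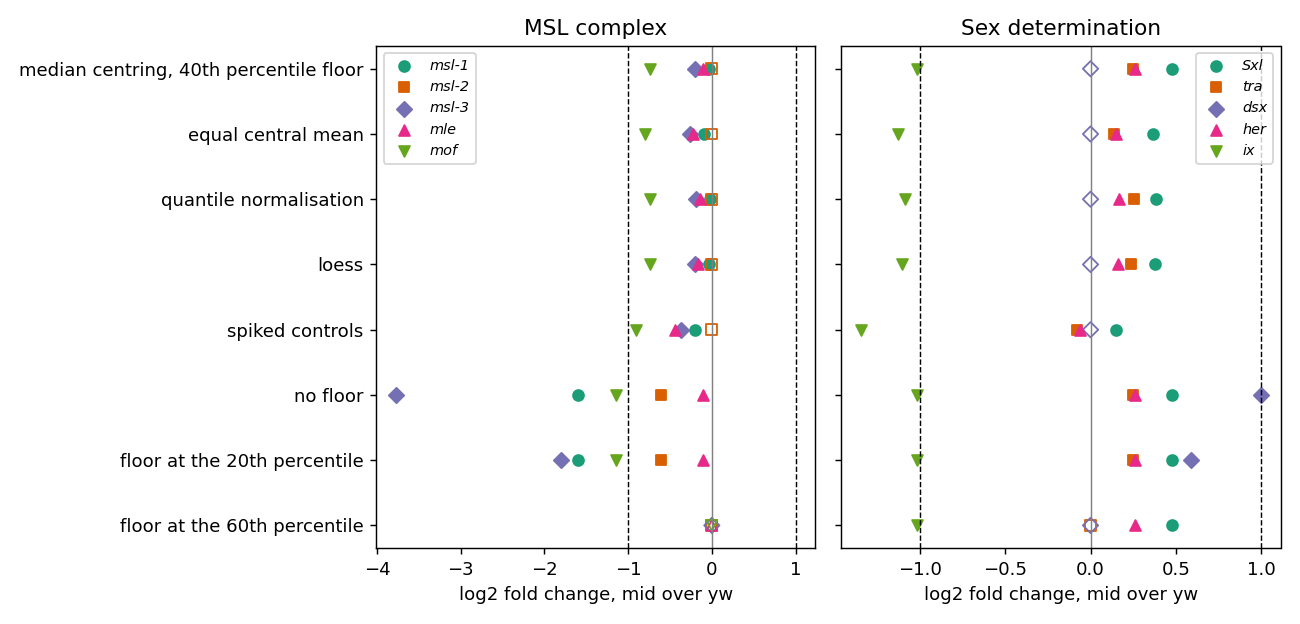
Log2 fold change (*mid* over *yw*) of the 5 MSL genes (left) and the 5 sex determination genes (right) under median centring with the floor at the 40th percentile and under 7 alternatives of scaling and floor (values as deposited and the median over probe sets are not drawn). Open symbols are genes below the floor on both arrays and dashed lines mark 2-fold. *ix* lies below the lower line in every row drawn, whereas *msl-1*, *msl-3* and *mof* lie below it in the rows with no floor and with the floor at the 20th percentile. With values as deposited, *msl-3* (-1.15) and *mof* (-1.69) were also past it.

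The remaining genes of these pathways were taken from lists. Of the proteins that work beside the MSL complex, 8 were listed, 6 were on the arrays by name and 5 were measured. None was called higher or lower, against 5.66% and 4.53% of all measured genes. *Clamp*, which encodes the zinc finger protein that guides the complex to the X, read 572 in *mid* and 1017 in *yw*, a log2 fold change of -0.83. *Trl*, which encodes GAGA factor, read 1119 in *mid* and 838 in *yw* (0.42), and *JIL-1*, a histone kinase gene, read 179 and 140 (0.36). *Su(var)3-7*, a heterochromatin gene, read 178 in *mid* and 154 in *yw*. *Clamp* was thus the only one of the 5 outside the spread between probe sets.

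MOF also works in the NSL complex, which binds promoters on all chromosomes. Of 6 listed subunits, 5 were measured, all above the floor on both arrays. Again none was called higher or lower, against 5.66% and 4.53% of all measured genes. *wds*, a WD-repeat gene, read 206 in *mid* and 330 in *yw* (log2 fold change -0.68). *nsl1*, the scaffold gene, read 534 in *mid* and 425 in *yw* (0.33). *Rcd5* read 1399 and 1731 (-0.31), and *Rcd1* read 458 and 500 (-0.13). The NSL median was -0.13.

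Genes that count the X or act for or against early *Sxl* activation, with the member *her* among them, were close to even as a list. Of 11 listed, 8 were on the arrays by name and 7 measured, 1 being called lower and none higher, against 4.53% and 5.66% of all measured genes. That gene was *gro*, which encodes a corepressor that restrains *Sxl* in males. It read 384 in *mid* and 1292 in *yw* by its brighter probe set (log2 fold change -1.75), but 625 and 678 by its other one, so the call rests on 1 of its probe sets. *sc*, one of the X-linked counting genes, read 94.0 in *mid*, below the floor, and 124 in *yw*. *Stat92E*, of the JAK/STAT pathway, read 2340 in *mid* and 2693 in *yw*, a log2 fold change of -0.20. The median of the list was 0.01.

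The factors that splice *Sxl* RNA in females, many of them components of the RNA methylation (m6A) machinery, read higher for some genes and lower for others. Of 10 listed genes, with the member *Sxl* among them, 8 were measured. Of these, 1 was called higher and none lower, against 5.66% and 4.53% of all measured genes. *nito*, which encodes a component of the methylation complex, read 238 in *mid* and 79.4, below the floor, in *yw*, and so was at least 2.44-fold higher. *Mettl14*, which encodes a partner of the methyltransferase, read 168 in *mid* and 88.3, also below the floor, in *yw*, at least 1.72-fold higher. *fl(2)d* read 296 in *mid* and 441 in *yw* (log2 fold change -0.57). *Hakai* read 139 in *mid* and 99.8 in *yw*, just above the floor, by its brighter probe set (0.48), and was below the floor on both arrays by its other one. With 4 of 8 reading higher in *mid*, *Sxl* itself being 1 of the 4, this list had no common direction.

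The list for the branch of *tra* and *dsx* holds the members *tra*, *dsx*, *her* and *ix*. Of its 8 genes 5 were measured, and *ix* was the only one called (lower, against 4.53% of all measured genes). *tra2*, which encodes the partner of TRA in splicing, read 270 in *mid* and 159 in *yw*, a log2 fold change of 0.76. *fru*, which encodes a regulator of male behaviour, read 143 in *mid* and 181 in *yw* by its brightest probe set (-0.34) and 104 and 140 by the next (-0.43). The other *fru* probe sets were below the floor on both arrays.

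Of 8 listed genes that respond to sex later in life, 4 were measured. None was called higher or lower, against 5.66% and 4.53% of all measured genes. The yolk protein gene *Yp2* read 168 in *mid* and 176 in *yw*, while *Yp1* and *Yp3* were below the floor on both arrays. *bab1* and *bab2*, which shape abdominal pigmentation, read 182 and 213 in *mid* and 231 and 231 in *yw* by their brighter probe sets. *Fad2*, a desaturase gene of female pheromone synthesis, read 63.3 in *mid*, below the floor, and 131 in *yw*. Of 6 germline sex genes only *ovo* and *Phf7* were measured, with log2 fold changes of -0.35 and 0.28. *ovo*, a zinc finger gene listed here for its part in the female germline, read 111 in *mid* and 141 in *yw*. *Phf7*, a gene of male germline identity, read 137 and 113. In whole embryos these signals cannot be assigned to the germline.

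**Figure D3:**
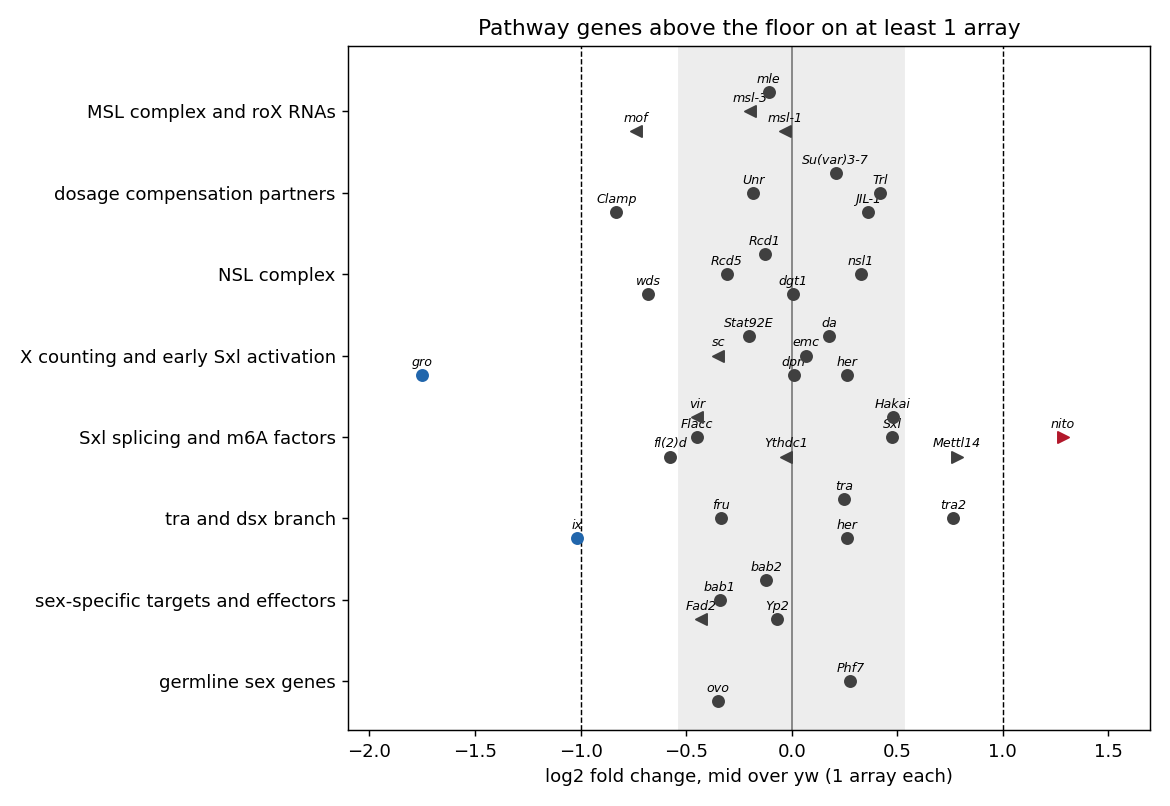
Log2 fold change (*mid* over *yw*, 1 array each) of each measured gene of 8 pathway lists. Circles are genes above the floor on both arrays, triangles are lower bounds pointing away from 0, dashed lines mark 2-fold and the grey band is 1 SD (0.53) between probe sets of a gene. *gro* and *ix* lie beyond the lower line and *nito* beyond the upper one.

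The MSL complex acts on the X, so fold changes were also read by chromosome arm, with arms taken from a gene table of assembly release 6. The X-linked genes above the floor on both arrays (1006) had a median log2 fold change of 0.01, against 0.09 for the autosomal ones (5357), a difference of -0.08. The middle 50% of X-linked genes lay between -0.31 and 0.33, and that of autosomal genes between -0.25 and 0.43. These ranges overlapped over most of their width. The medians of the 4 large autosomal arms were 0.07 for 2L, 0.11 for 2R, 0.10 for 3L and 0.08 for 3R, each of them above that of the X. Over all alternatives the difference between X and autosomes lay between -0.08 and -0.07. A constant factor on 1 array cancels in this difference, so several of the alternatives could change it only through the set of genes above the floor. The difference was not tested, since genes of 1 array pair are not replicates.

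Among measured genes on the X, 49 of 1228 (3.99%) were called higher and 54 (4.40%) lower in *mid*. Among autosomal genes, 385 of 6439 (5.98%) were called higher and 293 (4.55%) lower. The small chromosome 4, which has a chromosome-wide regulator of its own, POF, had a median of 0.25 over 41 genes, and *Pof* read 49.4 in *mid* and 18.6 in *yw*, below the floor on both arrays. The X-linked genes of the group are *Sxl* and *mof*. *Sxl* lay above the X median after median centring. *mof* was above the floor in *yw* only, so it had to read lower and is not among the genes of that median. The other members are on 2L (*msl-1*, *msl-2*, *her*), 2R (*mle*, *ix*), 3L (*msl-3*, *tra*) and 3R (*dsx*).

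**Figure D4:**
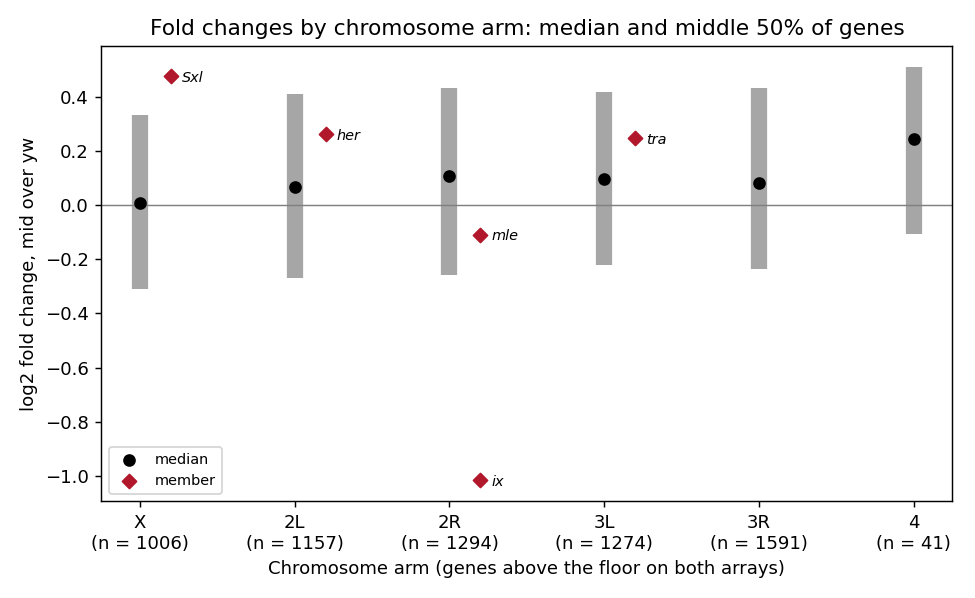
Log2 fold change (*mid* over *yw*) of genes above the floor on both arrays by chromosome arm, with the median as a black point and the middle 50% of genes as a grey bar. Diamonds are the 5 genes of the group above the floor on both arrays. The X median of 0.01 is the lowest of the 6, that of chromosome 4 (0.25, 41 genes) the highest, and *ix* lies far below the bar of its arm.

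Markers of other cells and stages differed between the arrays. For comparison with the calls below, 5.66% of all measured genes were called higher and 4.53% lower. The 4 neuronal markers with a probe set summed to 1888 in *mid* and 959 in *yw*, and *elav* (245 and 110) and *fne* (1113 and 432) were called higher, while *brp* (43.1 and 53.7) was below the floor on both arrays. All 5 epidermal and cuticle markers read higher in *mid*, summing to 12550 against 5830, with *Edg91* (4.04-fold), *Cpr65Ea* (2.35-fold) and *serp* (2.31-fold) called. The 3 muscle markers summed to 72421 in *mid* and 58342 in *yw* with none called, and all 3 were above the floor in both genotypes. Of the maternal transcripts, *smg* read 93.4 in *mid*, below the floor, and 1683 in *yw*, at least 17.2-fold lower, and *bcd* read 25.8 and 312, at least 3.2-fold lower. *gcl*, in contrast, read 929 in *mid* and 625 in *yw*. Germ cell markers (5 genes) summed to 319 in *mid* and 481 in *yw*, but only *ovo*, by its brighter probe set, was above the floor on both arrays. *pgc*, *piwi* and *aub* were below it in *mid*, and *vas* was below it in both (68.2 and 9.31). Somatic gonad markers (4 genes) summed to 237 and 385, with none above the floor on both arrays. Of these, *zfh1* (22.4 and 189) differed most, and *tj* (14.3 and 34.9) was below the floor on both arrays. In whole embryos the signals of these 2 lists, *ovo* and *zfh1* included, cannot be assigned to germ cells or gonad cells. These sums thus rest largely on dim signals. Of the markers of adult females, 3 were measured. *Cp15*, a chorion gene, was called lower (74.3 in *mid*, below the floor, and 214 in *yw*). *Cp36* (406 in *mid* and 439 in *yw*) and *Yp2* (168 and 176) were above the floor on both arrays and nearly even. The part of cell makeup and embryo age in the values of *ix*, *nito* and the MSL genes was not tested.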

How the data were processed

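RNA of *mid* and *yw* embryos was measured on 1 Affymetrix array each (14010 probe sets). The authors deposited a signal intensity per probe set on a linear scale, for which the submitters' processing notes name MAS5. No version, scaling target or detection call was found in the labels or the Methods. Probe sets were named from the array's annotation table (12443 with a single symbol, 327 with several, 1240 with none), and symbols and chromosome arms were taken from a RefSeq gene table of assembly release 6 through gene identifiers (the genes of 50 named probe sets were not in it). Lists were matched by exact symbol, then by unique exact synonym. No coordinates or sequences were used.

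Each array was centred on its median and floored at the 40th percentile of pooled values, and genes were represented by their brightest probe set. The number of arrays limits the precision. Alternatives were values as deposited, spiked controls (9 probe sets), equal means of the central 96%, quantile normalisation, loess (span 0.3), no floor or a floor at the 20th or 60th percentile, the median over probe sets, and fold limits of 1.5 and 3. The genes and lists were chosen with earlier results of these data known. All 10 genes are named, then up to 4 measured genes of each list with the largest change, and markers called. *Pof*, *Yp1*, *Yp3*, *gcl*, *vas*, *brp*, *pgc*, *piwi*, *aub*, *zfh1*, *tj* and *Cp36* do not follow from this rule and were chosen once their values had been seen. So were the Mediator genes, a list added after *ix* was seen. The computation was tested on simulated large changes in bright probe sets only, which does not cover dim genes or folds near the limit. The tools were numpy 2.4.6, matplotlib 3.10.9, pandas 2.3.3 and statsmodels 0.14.6 under Python 3.11.15.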

Additional observations from a re-analysis of the deposited data

How the results depend on the processing

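None of the 10 genes was called higher under any alternative. The count called lower was 1 after median centring and under most alternatives, but 7 with values as deposited, where the median of the measured members was -1.32 and that of all measured genes -1.52. It was 4 with the floor at the 20th percentile and 4 with no floor (*ix*, *msl-1*, *msl-3* and *mof*, the last 3 dim in *mid*), 2 at a 1.5-fold limit (*ix* and *mof*) and 0 at a 3-fold limit. With the floor at the 60th percentile 3 members were measured, with a median of 0.26. Of all genes, 435 were called higher and 348 lower, against 19 and 6428 with values as deposited, 204 and 717 with spiked controls, 882 and 901 with the floor at the 20th percentile, 228 and 166 at the 60th, 1220 and 1418 with no floor, 1284 and 987 at a 1.5-fold limit and 101 and 108 at a 3-fold limit. The log2 fold changes of *Sxl*, *her* and *ix* moved by less than the SD between probe sets under all 9 alternatives of scaling, floor and probe sets, once the shift of all measured genes was removed. Most of these could hardly move them. The floors and the median over probe sets left their values unchanged. Values as deposited, spiked controls and equal central means differ by a constant factor. Removing the shift largely cancels it, though less fully with values as deposited. Quantile normalisation and loess were thus the main checks. Signals near or below the floor of 97.6 limit what can be said of the MSL genes and *dsx*. No paired analysis was possible because each genotype has 1 array.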

Other observations

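IX is a subunit of Mediator, and the other Mediator genes were looked up after the value of *ix* was seen. Of 30 listed Mediator genes, 25 were on the arrays by name and 21 measured. In *mid*, 3 of them were called lower and none higher, against 4.53% and 5.66% of all measured genes, and *ix*, the reason for the list, is 1 of the 3. Besides *ix* these were *MED11* (116 in *mid* and 272 in *yw*, 2.35-fold lower) and *MED4* (112 and 234, 2.09-fold lower), both of them dim in *mid*. The list had a median log2 fold change of -0.08, against 0.06 for all measured genes. Among the genes that read higher in *mid* were *MED24* (180 in *mid* and 40.1, below the floor, in *yw*) and *kto*, of the kinase module of Mediator (401 and 278). The signals of *MED10* (592 and 591) were nearly equal, and *MED26* disagreed between its probe sets (1312 in *mid* and 1565 in *yw* by the brighter, 95.6 and 404 by the other).

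Of 7 chromatin genes listed for general effects on the X, 4 were measured. None was called higher or lower, against 5.66% and 4.53% of all measured genes. *Iswi*, a remodelling ATPase gene whose loss alters the male X, read 99.9 in *mid* and 155 in *yw* (log2 fold change -0.64). The gene of the heterochromatin protein HP1a read 404 in *mid* and 582 in *yw* (-0.53). *E(bx)*, of the NURF remodelling complex, read 229 and 276 by its brightest probe set (-0.27) but 221 and 182 by the next, and *Nurf-38*, of the same complex, read 4462 and 3706 (0.27).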
